A study of Homo sapiens with 6 samples.

Results

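Heat shock proteins and DNAJ co-chaperones were described with and without overexpression of apolipoprotein M in Caco-2, an established epithelial line from a human colon carcinoma. The members were set by a rule on gene symbols, which uses no measured value. It took the HSPA, HSPB, HSPD, HSPE, HSPH and HSP90 families and the DNAJA, DNAJB and DNAJC families. Symbols of pseudogene form were left out, and the rule was written with earlier results of these data known. Of 33616 genes tested, 66 met this rule, namely 24 HSP genes (12 HSPA, 6 HSPB, HSPD1, HSPE1, HSPH1 and 3 HSP90) and 42 DNAJ genes (4 DNAJA, 13 DNAJB and 25 DNAJC). All 66 were tested, since no filter on low values was applied. HSPA7 and DNAJB3, both transcribed pseudogenes in RefSeq, met the rule by their symbols and were kept. HSPA1A, HSPA1B, HSPA8, HSPB2 and DNAJC5 were represented only by features annotated to several symbols and were not analysed here. Where a gene had several features, the one with the highest mean was used.

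The study comprised 6 Affymetrix arrays of total RNA: 3 of cells of genotype NC and 3 of cells of genotype apoM overexpression. The labels give neither the expansion of NC nor the construct, and they do not say whether the cells were clones. Separate cultures are not mentioned either, so that the spread behind each p-value may be that of repeated arrays and not of biological replicates. All values are log2 signals, and a log2 change is the mean of the apoM arrays minus the mean of the NC arrays. The fit was limma across all genes, and a gene was called at a Benjamini-Hochberg adjusted p under 0.05. The arrays measure bulk RNA, in which fewer cells of a type and less RNA per cell cannot be told apart.

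Heat shock proteins are molecular chaperones, which help other proteins to fold, hold them in solution or pass them on for degradation. HSP70 proteins (the HSPA family) bind and release clients in a cycle driven by ATP; J-domain proteins (the DNAJ families) bring clients to them and stimulate ATP hydrolysis, and nucleotide exchange factors reopen the cycle. HSP90, the chaperonin HSPD1 with its lid HSPE1, and the small heat shock proteins (HSPB) handle other steps or other clients, and heat shock factor 1 drives many of these genes through heat shock elements in their promoters.

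APOM, the targeted gene, read 5.38, 5.84 and 6.41 on NC replicates 1 to 3 and 15.49, 15.56 and 15.85 on apoM replicates 1 to 3, a log2 change of 9.76. Among the colon epithelial markers, EPCAM averaged 17.39, CDH1 15.16, VIL1 13.12 and CDH17 13.55, whereas KRT20, TFF3 and LGALS4 averaged 7.23, 6.10 and 3.90. Leukocyte markers averaged 4.97 to 6.43 and endothelial markers 3.29 to 6.14. Means above the median of the genes tested were found for 9 of 10 colon epithelial and 4 of 5 leukocyte markers. The same held for 3 of 5 fibroblast, 2 of 4 endothelial and 1 of 3 erythroid markers. Of the epithelial, fibroblast, leukocyte, endothelial and erythroid marker lists, no gene passed the threshold in limma's test. NC replicate 3 differed from NC replicates 1 and 2: on the first principal component of all genes, which held 51.1% of the variance, the NC arrays lay at -59.6, -39.0 and -7.11 and the apoM arrays at 41.9, 39.6 and 24.3. Calls on members and partner lists that change without it are given below; of the marker lists, KRT18 passed without it (log2 change 0.72, adjusted p = 0.0487).

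None of the 66 members passed the threshold. The lowest adjusted p was 0.117, for HSPE1, and the background was 2.06% of all genes called (691 of 33616). At an unadjusted limma p under 0.05 there were 16 members, 24.2% of the 66, beside 19.1% of all genes. Of these 16, 13 had higher signal with apoM and 3 had lower signal, and the corresponding shares of all genes were 14.3% and 4.85%. All 3 apoM arrays lay above all 3 NC arrays for 14 members, 21.2% beside 17.3% of all genes. They lay below for 3 members, 4.55% beside 7.08%. Among the 17575 protein-coding genes, 1.13% were called, 17.3% had an unadjusted p under 0.05 (12.4% higher and 4.92% lower), and 16.4% had groups apart upwards and 8.07% downwards, with 61.6% of changes above 0; of the 64 protein-coding members, 16 (25.0%) had such a p, and 13 and 3 had groups apart. These shares were near the background, and the median log2 change of the members, 0.14, stood beside 0.09 over all genes and 0.08 over protein-coding genes. The member changes ran from -0.65 to 0.77, with 47 of 66 (71.2%) above 0 beside 62.9% of all genes. Without NC replicate 3, 2 members passed the threshold, HSPE1 and DNAJC9, against a background of 7.01% (2358 genes).

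**Figure D1:**
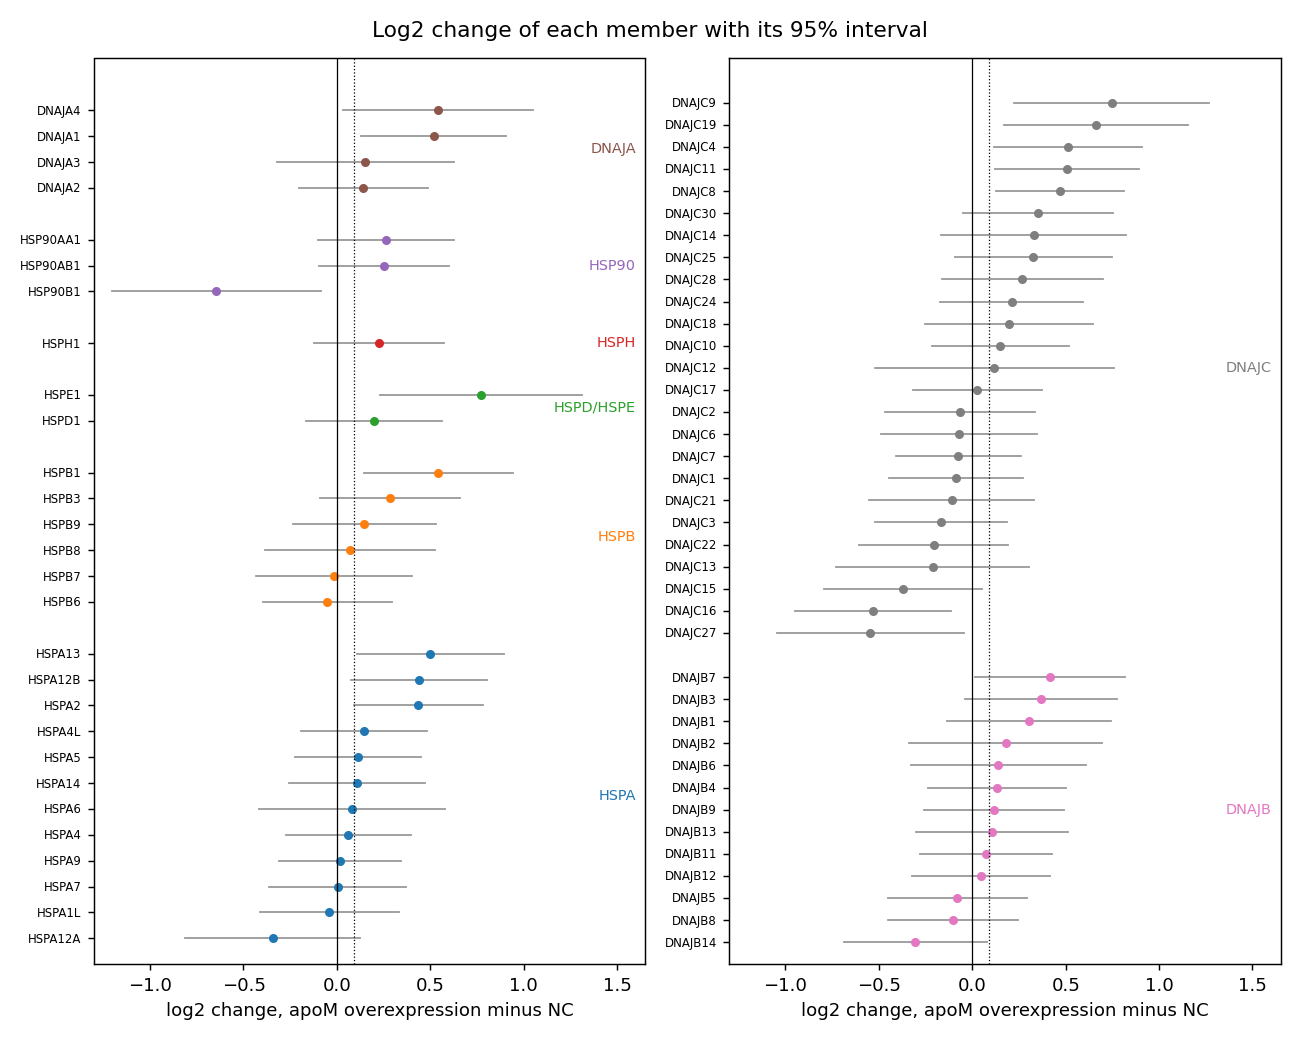
The log2 change (apoM minus NC) of each of the 66 members, grouped by family, with points for the estimate and bars for its 95% interval from limma; the dotted line marks the median of all genes, 0.09. The changes run from -0.65 (HSP90B1) to 0.77 (HSPE1), and most lie above 0 without passing the threshold.

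By array, the median deviation of the members from their own mean over the 6 arrays was -0.14, -0.12 and 0.03 for the NC arrays in order of replicate number, and 0.11, 0.07 and -0.0008 for the apoM arrays. For all genes the same medians were -0.08, -0.07 and 0.00 with NC and 0.05, 0.05 and 0.03 with apoM. The members therefore lay low on NC replicates 1 and 2 and high on apoM replicates 1 and 2, while the third array of each group lay near the middle. NC replicate 3 was the highest of the 3 NC arrays for 40 of the 66 members (60.6%), beside 44.1% of all genes.

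**Figure D2:**
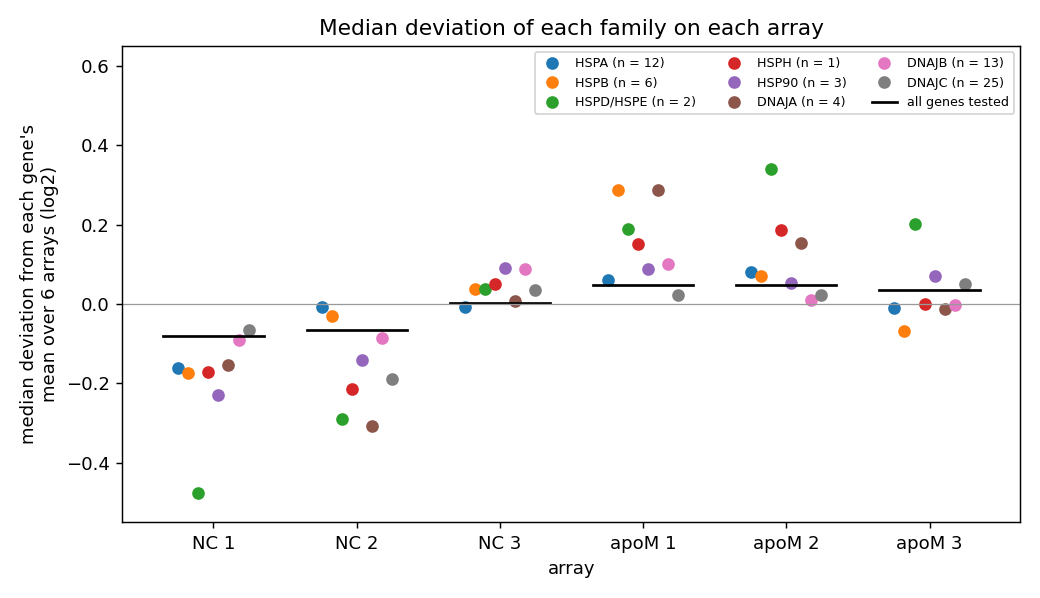
Median deviation of each family from its members' own means on each of the 6 arrays, on the log2 scale; black bars give the same median over all genes. HSPD/HSPE lie at -0.48 and -0.29 on NC replicates 1 and 2 and at 0.19 to 0.34 on the apoM arrays, with NC replicate 3 at 0.04 between them.

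HSPE1 and HSPD1, the chaperonin pair of the mitochondrial matrix, lie head to head on chromosome 2 with 104 bases between their RefSeq start sites. The interval is printed because it is the promoter region that both genes share; it lies at chr2:197500275-197500378 of GRCh38.p14, is read on the plus strand, and runs from the HSPD1 start to the HSPE1 start.
HSPD1 to HSPE1 interval: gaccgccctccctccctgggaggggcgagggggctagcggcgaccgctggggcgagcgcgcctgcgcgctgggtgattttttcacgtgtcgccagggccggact

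HSPE1, the co-chaperonin HSP10, read 16.01, 16.27 and 17.01 on the NC arrays and 17.10, 17.19 and 17.32 on the apoM arrays. All apoM arrays were above all NC arrays, and NC replicate 3 was the highest of its group, close to apoM replicate 1. Its log2 change was 0.77 (SE 0.24, 95% interval 0.23 to 1.31, n = 3 arrays a group), a 1.71-fold difference with a limma adjusted p of 0.117. Without NC replicate 3 the change was 1.06 and the adjusted p 0.0109. Without NC replicate 1 it was 0.56 (limma adjusted p = 0.336), and after quantile normalization 0.52 (0.229). HSPD1, the barrel-forming HSP60, read 16.33, 16.45 and 16.36 with NC and 16.57, 16.79 and 16.38 with apoM, and the groups overlapped. The HSPD1 log2 change was 0.20 (95% interval -0.16 to 0.56, adjusted p = 0.557), and -0.09 after quantile normalization. Taken array by array, the HSPE1 minus HSPD1 difference was 0.57 greater with apoM, and the exact two-sided permutation p was 0.3, in a design where 3 against 3 arrays cannot go below 0.1. The design could therefore not reach 0.05 for this difference.

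**Figure D3:**
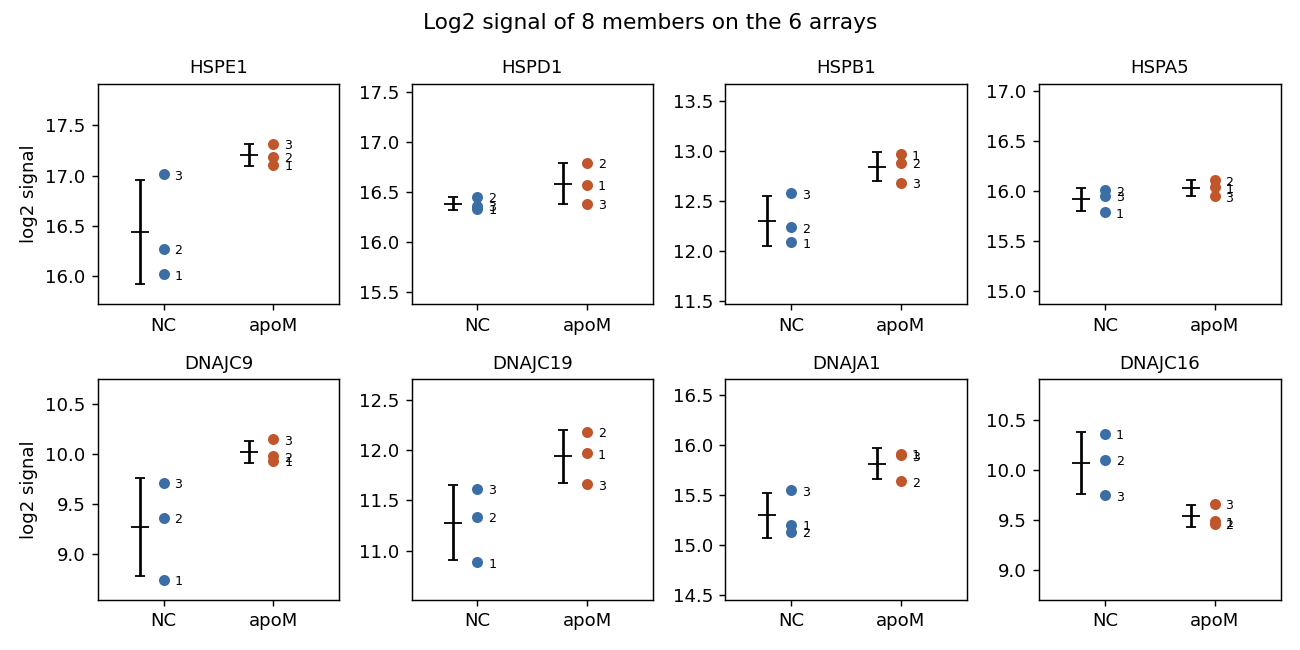
Log2 signal of HSPE1, HSPD1, HSPB1, HSPA5, DNAJC9, DNAJC19, DNAJA1 and DNAJC16 on each array, with point labels giving the replicate and bars giving the mean ± SD of 3 arrays. NC replicate 3 is the NC array nearest to the apoM group for HSPE1, HSPB1, DNAJC9, DNAJC19, DNAJA1 and DNAJC16. The HSPD1 and HSPA5 groups overlap.

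The cytosolic HSP90 genes had log2 changes of 0.26 and 0.25, which were 0.024 and 0.028 after quantile normalization. HSP90AA1, the stress-inducible alpha form, read 15.30, 15.27 and 15.62 with NC and 15.62, 15.58 and 15.78 with apoM (95% interval of the change -0.10 to 0.63, adjusted p = 0.426). HSP90AB1, the constitutive beta form, read 17.03, 17.16 and 17.35 with NC and 17.44, 17.48 and 17.37 with apoM (SE of the change 0.16, adjusted p = 0.420). The groups overlapped for HSP90AA1 and did not for HSP90AB1, where NC replicate 3 and apoM replicate 3 were the nearest arrays. HSP90B1, the endoplasmic reticulum paralogue also called GRP94, read 6.79, 7.11 and 7.85 with NC and 6.72, 6.49 and 6.59 with apoM, all below the NC arrays. Its log2 change of -0.65 (95% interval -1.20 to -0.09) was the most negative among the members, with an adjusted p of 0.194. This HSP90B1 value is uncertain, since the feature carries the symbol without a gene ID and a brighter HSP90B1 feature is shared with another symbol. HSPH1, the HSP110 that exchanges nucleotide on HSP70, read 14.47, 14.43 and 14.69 with NC and 14.79, 14.83 and 14.64 with apoM. Its groups overlapped, with a log2 change of 0.22 (adjusted p = 0.480), and 0.049 after quantile normalization.

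The HSPA family had a median log2 change of 0.095, beside 0.090 over all genes, with 10 of 12 members above 0, and a median of -0.01 after quantile normalization or with array medians subtracted. HSPA5, known as BiP, the HSP70 of the endoplasmic reticulum, read 15.79, 16.01 and 15.95 with NC and 16.04, 16.11 and 15.95 with apoM. The change was 0.11 (SE 0.15, 95% interval -0.22 to 0.45, adjusted p = 0.742), with overlapping groups, and it was -0.15 after quantile normalization. HSPA9, or mortalin, the HSP70 of the mitochondrial matrix, read 15.68, 15.68 and 15.69 with NC and 15.61, 15.80 and 15.70 with apoM. Its change of 0.02 had a 95% interval from -0.31 to 0.34 (adjusted p = 0.969), and it was -0.23 after quantile normalization. The 3 largest changes belonged to HSPA13, HSPA12B and HSPA2, and for each of them every apoM array lay above every NC array. HSPA13, a microsome-associated member lacking the usual substrate-binding part, read 8.84, 8.80 and 8.85 with NC and 9.10, 9.65 and 9.24 with apoM (change 0.50, adjusted p = 0.158). HSPA2, known for its role in spermatogenesis, read 6.66, 6.81 and 6.81 with NC and 7.35, 7.05 and 7.19 with apoM (change 0.44, adjusted p = 0.161). HSPA12B, a distant member of the family, read 3.99, 4.24 and 3.84 with NC and 4.40, 4.43 and 4.56 with apoM. These HSPA12B signals lie below the median of the genes tested, which was 5.23 to 5.40 by array, and the change of 0.44 had an adjusted p of 0.177. HSPA12A, its paralogue, had the most negative value of the family, -0.34, with overlapping groups (adjusted p = 0.411). HSPA1L, the other member below 0, had a change of -0.04 (limma adjusted p = 0.929). HSPA6, a strictly stress-inducible HSP70, had a change of 0.08, and HSPA4 and HSPA4L, relatives of HSPH1, had 0.06 and 0.15. HSPA12A, HSPA1L and HSPA6 averaged 4.75, 4.83 and 4.88, also below the median of the genes tested.

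Among the small heat shock proteins, HSPB1 (HSP27), an oligomer that holds unfolding proteins, read 12.09, 12.24 and 12.58 with NC and 12.97, 12.88 and 12.68 with apoM. The groups did not overlap. The log2 change was 0.54 (SE 0.18, 95% interval 0.14 to 0.94), and the adjusted p was 0.133. HSPB3, known from muscle, had a change of 0.29 with overlapping groups (adjusted p = 0.398). HSPB9, HSPB8, HSPB7 and HSPB6 had changes of 0.15, 0.07, -0.02 and -0.05, so HSPB1 had the largest value of the 6. HSPB9 and HSPB6 averaged only 3.08 and 4.26, below the median of the genes tested.

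All 4 DNAJA genes had changes above 0, with a median of 0.34. DNAJA1, a cytosolic partner of HSP70, read 15.20, 15.13 and 15.54 with NC and 15.91, 15.63 and 15.89 with apoM. The groups did not overlap, and the change was 0.52 (SE 0.17, 95% interval 0.13 to 0.91, adjusted p = 0.138). DNAJA4 read 5.91, 6.55 and 6.66 with NC and 7.04, 7.09 and 6.62 with apoM, and its groups overlapped through the third array of each (change 0.54, adjusted p = 0.230). DNAJA3, the mitochondrial member, had a change of 0.15, and DNAJA2, a cytosolic one, had 0.14.

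The DNAJB family had a median log2 change of 0.12 with 10 of 13 members above 0, and a median of -0.03 with a gene-span trend removed. DNAJB1, the canonical stress-inducible HSP40, read 11.06, 11.64 and 11.71 with NC and 11.75, 11.85 and 11.71 with apoM. NC replicate 1 alone was low, the groups overlapped, and the change was 0.30 (95% interval -0.13 to 0.74, adjusted p = 0.444). DNAJB9, an endoplasmic reticulum J-protein that binds HSPA5, read 8.12, 8.18 and 7.98 with NC and 8.44, 8.19 and 7.999 with apoM, a change of 0.12 (adjusted p = 0.766). DNAJB7 and DNAJB3 had the largest values of the family, 0.42 and 0.37, at signals below the median of the genes tested; their adjusted p values were 0.242 and 0.307. DNAJB14, a J-protein anchored in the endoplasmic reticulum membrane, read 8.57, 8.50 and 8.69 with NC and 7.998, 8.43 and 8.42 with apoM. Its apoM arrays all lay below the NC arrays, with a change of -0.30 (adjusted p = 0.376). DNAJB8 had a change of -0.10 (adjusted p = 0.784).

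The DNAJC family, whose members share little beyond the J domain, was divided: 14 of 25 changes were above 0 and the median was 0.12, which was 0.014 with array medians subtracted and 0.023 without apoM replicate 2. DNAJC9, a histone chaperone that recruits HSP70, read 8.74, 9.36 and 9.72 with NC and 9.94, 9.98 and 10.15 with apoM. NC replicate 1 was the lowest and no array overlapped between groups. The log2 change was 0.75, a 1.68-fold difference (SE 0.23, 95% interval 0.22 to 1.27, adjusted p = 0.118). Without NC replicate 3 it was 0.97 with an adjusted p of 0.0321, and without NC replicate 1 it was 0.48 (limma adjusted p = 0.304). A dimmer DNAJC9 feature, at a mean of 5.50, had a change of -0.01, and the mean of both features gave 0.37. DNAJC19, a subunit of the import motor of the mitochondrial inner membrane, read 10.88, 11.34 and 11.62 with NC and 11.97, 12.19 and 11.66 with apoM (change 0.66, SE 0.22, adjusted p = 0.137). Its groups did not overlap, though the third arrays of each group lay close together. DNAJC15, the paralogue of DNAJC19, had a change of -0.37 with an adjusted p of 0.326. DNAJC4 read 8.40, 8.62 and 8.94 with NC and 9.05, 9.24 and 9.21 with apoM (change 0.51, adjusted p = 0.151). DNAJC8, a spliceosome-associated J-protein, had a change of 0.47, and DNAJC11, of the mitochondrial membrane, had 0.51, while a second DNAJC11 feature had -0.32.

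At the other end of the family, DNAJC16, a J-protein of the endoplasmic reticulum, read 10.36, 10.10 and 9.74 with NC and 9.49, 9.46 and 9.66 with apoM. All apoM arrays were below all NC arrays, with NC replicate 3 the nearest, and the change was -0.53 (95% interval -0.95 to -0.12, adjusted p = 0.155). DNAJC27, which carries a small GTPase domain, read 8.28, 7.66 and 7.56 with NC and 7.58, 7.09 and 7.20 with apoM. The groups overlapped at NC replicate 3 and apoM replicate 1, and the change was -0.55 (adjusted p = 0.220). DNAJC3, an inhibitor of the kinase PERK and a co-chaperone of HSPA5, read 11.20, 11.23 and 11.22 with NC and 10.89, 11.26 and 10.98 with apoM, a change of -0.17 with overlapping groups (adjusted p = 0.623).

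By location and known use, the groups below cut across the families, and none of their genes passed the threshold. Beside their counts stand the shares of all genes: 62.9% of changes above 0, 17.3% with the apoM arrays all higher and 7.08% with them all lower. Of the 10 mitochondrial members, 9 had changes above 0 with a median of 0.31. For 4 of them (HSPE1, DNAJC19, DNAJC11 and DNAJC4) the apoM arrays all lay above the NC arrays. After quantile normalization 7 of the 10 were above 0, with a median of 0.38. The median was 0.20 with array medians subtracted and 0.14 with the span trend removed. Of the 14 endoplasmic reticulum members, 9 were above 0 with a median of 0.094, which was -0.011 with array medians subtracted and -0.052 with the span trend removed; the apoM arrays lay above for HSPA13 and below for DNAJB14, DNAJC16 and HSP90B1. The 9 analysed of 12 stress-inducible heat shock genes had changes from 0.08 to 0.77 with a median of 0.26, all above 0 on the deposited scale. After quantile normalization 8 of the 9 were above 0, with HSPD1 below, and 8 with array medians subtracted, with the span trend removed, without NC replicate 1 or without apoM replicate 1, with HSPA6 below. Genes known mainly from muscle, nerve or testis, 18 analysed of 19, had a median of 0.03 with 9 above 0, and a median of -0.078 with array medians subtracted. DNAJC5B and DNAJC5G are in this list, although their symbols fall outside the rule for members. Only 4 of the 18 lay above the median level of the genes tested, and these had a median of 0.18 with 3 above 0.

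The partners of these chaperones were examined as lists by role. Among 16 nucleotide exchange factors and other HSP70 partners, 1 gene passed the threshold, where 2.06% of all genes did, and the list's median log2 change was 0.23. An unadjusted p under 0.05 was found for 8 of the 16, beside 19.1% of all genes. Without NC replicate 3, where 7.01% of all genes passed, the count was 3: SIL1, BAG1 (adjusted p = 0.0222) and STUB1 (adjusted p = 0.0440), a ubiquitin ligase that is also listed with the HSP90 co-chaperones. SIL1, the nucleotide exchange factor of HSPA5, read 8.66, 8.997 and 9.13 with NC and 9.89, 9.89 and 9.56 with apoM. SIL1 rose by 0.85 (SE 0.18, 1.80-fold, limma adjusted p = 0.0467, and 0.0237 to 0.403 over the alternatives), but the call was lost with array medians subtracted (adjusted p = 0.0549), when the mean of its features was used (change 0.31, adjusted p = 0.403), and without any single array other than NC replicate 3, where the adjusted p ran from 0.0674 to 0.162. BAG1, which releases clients from cytosolic HSP70, read 7.80, 7.29 and 8.34 with NC and 8.58, 8.41 and 8.72 with apoM (change 0.76, adjusted p = 0.127).

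Of 14 HSP90 co-chaperones analysed of 17, none passed the threshold in limma's test, and 4 had an unadjusted p under 0.05, beside 19.1% of all genes. Without NC replicate 3, where 7.01% of all genes passed, the count was 3: SUGT1 (adjusted p = 0.0439), NUDCD1 (adjusted p = 0.0412) and STUB1. SUGT1, which links HSP90 to kinetochore assembly, read 10.99, 11.15 and 11.30 with NC and 11.75, 11.76 and 11.74 with apoM, with groups apart and a change of 0.60 (adjusted p = 0.0679). NUDCD1 had a change of 0.84 (adjusted p = 0.1002). The median of this list was 0.18. Among 5 of 7 heat shock factors and their regulators, none passed and 1 had an unadjusted p under 0.05. That gene was HSBP1, a small protein that binds heat shock factor 1, which read 9.07, 9.86 and 10.19 with NC and 11.12, 10.76 and 10.60 with apoM. Its change of 1.12 had an SE of 0.27 and an adjusted p of 0.0610, and without NC replicate 3 it was 1.36 with an adjusted p of 0.0189. With other single arrays left out, the HSBP1 change was as low as 0.81 and the limma adjusted p as high as 0.196. HSF1 itself read 7.55, 7.60 and 7.72 with NC and 7.79, 7.82 and 7.83 with apoM, a change of 0.19 (adjusted p = 0.524).

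Among 11 of 12 mitochondrial chaperone partners, none passed the threshold in limma's test, 3 had an unadjusted p under 0.05 (19.1% of all genes did) and the median was 0.23. Without NC replicate 3, 7.01% of all genes passed. The count for this list was then 2: CLPP (adjusted p = 0.0251) and TRAP1, the mitochondrial paralogue of HSP90 (adjusted p = 0.0498). CLPP, the protease of the matrix, read 11.12, 11.39 and 11.59 with NC and 12.40, 12.39 and 11.94 with apoM, a change of 0.88 (adjusted p = 0.0509). TIMM44, which tethers HSPA9 to the import channel, had a change of 0.55 (adjusted p = 0.116). Of 4 analysed J-domain genes with other names, none passed and none had an unadjusted p under 0.05. Their median was 0.03, and the lowest value was that of SEC63, the J-protein of the endoplasmic reticulum translocon, at -0.35 (adjusted p = 0.321). HSCB, which serves iron-sulfur cluster assembly, had 0.39.

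The array also carries features named for pseudogenes of these families, 71 in all after 2 genes of similar symbol form (HSPBP1 and HSPBAP1) were set aside; pseudogenes and parents share sequence, so reads of one feature may include RNA of another. None of the 71 rose and 2 fell (2.82% called, beside 2.06% of all genes). HSPD1P11 read 7.27, 7.52 and 6.88 with NC and 5.61, 5.51 and 5.92 with apoM and fell by 1.55 (limma adjusted p = 0.0143), and HSPE1P28 read 8.16, 8.21 and 7.64 with NC and 7.30, 6.99 and 6.97 with apoM and fell by 0.92 (adjusted p = 0.0467). The HSPD1P11 call was lost without NC replicate 1 or 2 or apoM replicate 1 or 2 (adjusted p 0.0637 to 0.0900), and the HSPE1P28 call after quantile normalization (0.0613) and without any single array other than NC replicate 3 (0.107 to 0.161). The parents HSPD1 and HSPE1 had changes of 0.20 and 0.77. Of 26 HSPE1 pseudogene features, 6 had a mean above 10, and their changes ran from 0.60 to 0.75, close to that of HSPE1. Of 15 HSPD1 pseudogene features, 3 had a mean above 10, with changes from 0.35 to 0.51. HSPB1P1 had a change of 0.60 beside 0.54 for HSPB1. HSP90B2P, a pseudogene of HSP90B1, had a change of -0.33 at a mean of 13.67 (limma adjusted p = 0.2999), with the apoM arrays all below the NC arrays. HSP90B3P, the other HSP90B pseudogene feature, went the other way, at 0.25 and a mean of 7.73. HSPA9P1 had a change of 0.38 at a mean of 12.68, beside 0.02 for HSPA9.

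**Figure D4:**
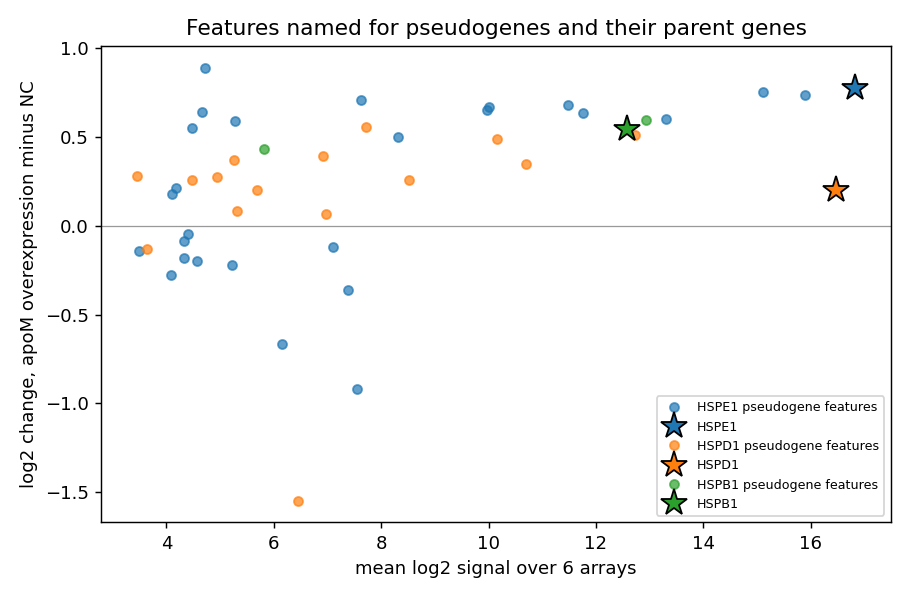
Log2 change (apoM minus NC) against the mean log2 signal over 6 arrays for features named for pseudogenes of HSPE1, HSPD1 and HSPB1 (circles), with the parent genes as stars. The 6 HSPE1 pseudogene features with a mean above 10 lie between 0.60 and 0.75, near HSPE1 at 0.77, and dimmer features spread from -1.55 to 0.89.

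Gene length moved with these values. The genomic span from RefSeq had a median of 19.8 kb over the 64 protein-coding members and 26.1 kb over all protein-coding genes. Across the 64 members the Spearman correlation of the log2 change with span was -0.36. It was -0.22 across 17575 protein-coding genes and -0.35 across the 10839 of them above the median level of the genes tested. Of the 66 members, 52 lay above that level. Genes share the same 6 arrays and are not independent replicates. The 22 members under 10 kb had a median change of 0.22 beside 0.14 for 4610 protein-coding genes of that span. The 23 members from 10 to 40 kb had 0.14 beside 0.10, and the 19 members of 40 kb or more had 0.03 beside 0.01. HSPE1 spans 3.07 kb and HSPB1 1.62 kb. A span trend was removed from each array over protein-coding genes only. The median was then 0.038 for the 64 members and -0.0049 for all protein-coding genes. With array medians subtracted, it was 0.031 for the 66 members and -0.014 for all genes. The part of gene span in the members' changes was not tested.

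Promoters were searched for the letters of 2 elements in the 250 bases before each RefSeq start site (GRCh38.p14), on both strands; 58 of the 66 members matched the table, with 77 promoters. The 3-unit heat shock element GAANNTTCNNGAA, or TTCNNGAANNTTC on the other strand, was present in 5 members, 6.49% of the member promoters beside 0.441% of all 35116 promoters. The members were HSP90AA1, HSP90AB1, HSPA6, HSPD1 and DNAJB6. The matches are printed since they are the sequences through which heat shock factor is known to act on such genes; capitals mark the element, each is read 5′ to 3′ on its gene's strand, and the HSPD1 capitals hold 2 overlapping matches. The HSP90AA1, HSP90AB1 and HSPD1 matches lie before a later start site of the gene, downstream of its first one; the HSPD1 match is therefore not in the interval shared with HSPE1.
HSP90AA1, chr14:102087112-102087140, minus strand: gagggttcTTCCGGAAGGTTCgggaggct
HSP90AB1, chr6:44247770-44247798, plus strand: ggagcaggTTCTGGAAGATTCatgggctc
HSP90AB1, chr6:44247823-44247851, plus strand: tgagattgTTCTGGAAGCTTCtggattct
HSPA6, chr1:161524446-161524498, plus strand: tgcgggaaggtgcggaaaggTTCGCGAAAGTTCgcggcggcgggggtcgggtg
HSPD1, chr2:197500062-197500090, minus strand: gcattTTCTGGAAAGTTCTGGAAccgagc
DNAJB6, chr7:157336853-157336905, plus strand: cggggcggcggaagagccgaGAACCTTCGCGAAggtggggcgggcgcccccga

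The 5 members with this element had log2 changes from 0.08 to 0.26 with a median of 0.20, beside 0.13 over the 53 matched members without it. HSPE1, DNAJC9 and DNAJC19, the members with the largest changes, were not among the 5. The HSPD1 match also lies upstream of the HSPE1 start, but farther from it than the window searched, so it was not counted for HSPE1. Whether it acts on HSPE1 was not tested. The shorter pair GAANNTTC or TTCNNGAA, which is contained in the longer element, was present in 17 members, 22.1% of their promoters beside 11.6% of all promoters. Their median change was 0.20, with values from -0.37 to 0.54, beside 0.12 over the 41 without it. A match is a description of letters and no test was made of these medians.

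The endoplasmic reticulum stress element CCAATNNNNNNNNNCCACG, or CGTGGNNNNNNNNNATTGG on the other strand, was present in 1 member, HSPA5, and in 0.0740% of all promoters. It is printed because HSPA5 is the textbook target of this element.
HSPA5, chr9:125241371-125241429, minus strand: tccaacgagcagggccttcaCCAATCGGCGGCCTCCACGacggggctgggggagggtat
The change of 0.11 given above is that of the HSPA5 gene, and whether this element had a part in it was not tested.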

How the data were processed

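Total RNA of Caco-2 cells was measured on 6 arrays. The deposited values are log2 signals, which the authors made, per the submitters' processing notes, with Affymetrix Expression Console; its version and settings, and the build behind the probe design, are not stated there. The arrays were taken to be on a common scale from their near-equal medians (4.48 to 4.53 over 135750 features). Over the genes tested the medians followed the groups: 5.23, 5.28 and 5.33 with NC and 5.40, 5.37 and 5.38 with apoM. The platform annotation gave 36176 features 1 symbol, 1119 several and 98455 none. Symbols were updated through RefSeq gene IDs (25516 features matched) or by symbol (9899), 761 matched neither, and the brightest feature of each gene was kept. Tests used limma 3.58.1 in R 4.3.3 (lmFit and eBayes, both groups, no covariate), tested on simulated data. Python 3.11.15 and matplotlib 3.10.9 made the summaries and plots. With 3 arrays a group, precision is limited by their number.

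The members and lists were chosen with earlier results of these data known. Named with values were APOM, a set of well-known members, the 3 most positive and 2 most negative changes of each family, and of each partner list every gene past the threshold and the 2 with the smallest p. DNAJC8, DNAJC11, DNAJC15, HSPA6, HSPA4, HSPA4L, HSPB8, DNAJA2, DNAJB6, STUB1, TRAP1, KRT18 and the pseudogene features lie outside this rule and were named after their values were seen. The same holds for HSPBP1, HSPBAP1, DNAJC5B and DNAJC5G. Scaling, filters, feature choice, array weights, span and each left-out array were varied.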

Additional observations from a re-analysis of the deposited data

How the results depend on the processing

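No member passed the threshold under any alternative run except without NC replicate 3, where HSPE1 and DNAJC9 passed; leaving out 1 array at a time gave 0 to 2 members. All-gene calls ran from 2 without apoM replicate 1 to 2358 without NC replicate 3, against 691 in the main fit. They were 44 without NC replicate 1, 8 without NC replicate 2, 17 without apoM replicate 2 and 235 without apoM replicate 3. The counts were 1730 over genes above the median level, 1679 with array weights and 1251 with a robust trended prior. Over protein-coding genes only, they were 195, and 241 with the span trend removed. Of 635 values for named genes under the alternatives, 595 kept direction and side of the threshold. The causes of the differences below were not tested.

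Deviations from the group means were hardly correlated between same-numbered arrays (-0.0735, 0.0332 and -0.0691). These values do not settle whether such arrays were handled together. With the replicate block, 0 members and 0 HSP70 partners passed (SIL1 adjusted p = 0.0931), nor did HSPD1P11 (0.0536) or HSPE1P28 (0.0701), and 50 genes passed in all.

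Changes with the opposite sign were as follows. With quantile normalization HSPA5 was at -0.15, HSPA9 at -0.23 and HSPD1 at -0.092. With array medians subtracted HSPA9 was at -0.088. With the span trend removed HSPA5 was at -0.049, HSPA9 at -0.082, DNAJB9 at -0.053 and HSPB9 at -0.012. With array weights HSPB7 was at 0.012. Leaving out 1 array gave DNAJA3 -0.040 to 0.30, HSPA1L -0.11 to 0.051, HSPA9 -0.030 to 0.063, HSPB6 -0.10 to 0.039 and HSPB7 -0.14 to 0.14.

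Medians of log2 change moved with scaling, with the span trend removed and with single arrays left out. Subtracting array medians, which moved the median of all genes from 0.090 to -0.014, gave 0.031 for the members, 0.012 for DNAJB, 0.014 for DNAJC, -0.00995 for HSPA, 0.076 for HSP90 co-chaperones, 0.13 for HSP70 partners, 0.088 for heat shock factors and -0.077 for J-domain genes with other names. Quantile normalization gave 0.024 for HSP90, -0.011 for HSPA, 0.21 for HSPD/HSPE, 0.049 for HSPH1, 0.028 for HSP90 co-chaperones and 0.12 for HSP70 partners. Removing the span trend gave 0.038 for the members, -0.027 for DNAJB, -0.032 for HSPB, 0.097 for HSP90, 0.062 for HSP90 co-chaperones and 0.085 for heat shock factors. Leaving out 1 array gave 0.0083 to 0.14 for DNAJB and 0.023 to 0.18 for DNAJC.

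The HSP70 partner count was 0 with array medians subtracted and with the mean of a gene's features, and 0 to 3 with 1 array left out. The counts for HSP90 co-chaperones (SUGT1), heat shock factors (HSBP1) and mitochondrial partners (CLPP) were 1 each over genes above the median level, with a robust trended prior, with array weights and at an adjusted p of 0.1. With 1 array left out they were 0 to 3, 0 to 1 and 0 to 2.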

Other observations

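Of 16 features named for pseudogenes of HSPA8, whose own feature was not analysed here, 3 had a mean above 10, with changes from 0.57 to 0.84. HSPA8P1 had 0.84 (adjusted p = 0.0771). HSPBP1, an exchange factor of HSP70, had a change of 0.70 (adjusted p = 0.160), and HSPBAP1 had -0.41 (adjusted p = 0.279).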
